A study of Mus musculus with 12 samples.

Results

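Reads on the rows of miRNA precursor families were examined in small RNA libraries from the mouse prefrontal cortex (PFC). Members were selected on their counts: a member family was any row of type precursor whose name did not begin with upper-case MIR and digits, the style of plant families, and that had at least 5 counts in at least 3 libraries. Of the 204 precursor families in the files, 112 were members, 73 others with animal-style names were below that minimum and 19 had upper-case names. The files held 3130 rows for named small RNAs of all kinds, plus 4 rows for whole classes of genome sequence. The 12 libraries came from the medial PFC of adult male C57BL/6 mice, taken 2 h after a cocaine-conditioned place preference (CPP) test, and each was made from the pooled RNA of 2 animals. SS mice were given saline only. CS mice were given cocaine at 20 mg/kg over 8 days of pairing with 1 side of the chamber. MS mice were given l-methionine, a methyl donor of the diet, at 1 g/kg under the skin 2 times a day for 10 days, and MC mice were given both l-methionine and cocaine. Each group had 3 libraries, which the labels number as SS 12, 13 and 14, CS 8, 9 and 10, MS 3, 4 and 23, and MC 16, 17 and 20, and lists of values below follow this order. Nothing in the labels says how the pools relate to litters or days, so p-values measure the spread between these pools.

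MicroRNA genes are transcribed as long RNAs, from which a hairpin precursor is cut, and the hairpin is then trimmed to a mature strand that guides silencing proteins to mRNAs. The bases at positions 2 to 8 of the mature strand, the seed, do most of the target recognition, and hairpins of related sequence are grouped into families. In the brain, miR-124, miR-9, miR-128 and miR-138 are typical of neurons, miR-219 and miR-338 of oligodendrocytes, and miR-29, miR-26, miR-181 and let-7 are widely expressed. Only RNA of 18 to 30 nt was sequenced here, which is shorter than a hairpin, so a count on a family row is a short read given to the name of that family and not an intact precursor. How reads were divided between family rows and the rows of mature miRNAs is not given in the sources used here.

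The mature strands behind the families with the highest levels, and behind those that the comparisons below turn on, are printed with the seed in capitals. For each family the strand is the mature row of the same number with the most counts in these libraries. Sequences are from RefSeq, and positions are of the hairpin on GRCm38.p6.
miR-29a-3p: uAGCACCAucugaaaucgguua
miR-9-5p: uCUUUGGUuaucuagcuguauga
miR-181a-5p: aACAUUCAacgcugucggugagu
miR-26a-5p: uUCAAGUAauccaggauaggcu
miR-128-3p: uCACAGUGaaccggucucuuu
miR-221-3p: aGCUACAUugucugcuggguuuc
let-7c-5p: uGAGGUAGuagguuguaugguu
miR-24-3p: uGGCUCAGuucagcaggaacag
miR-23a-3p: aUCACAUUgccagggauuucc
miR-27a-3p: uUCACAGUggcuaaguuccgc
miR-132-5p: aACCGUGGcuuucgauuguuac
miR-125b-5p: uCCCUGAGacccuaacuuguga
miR-7a-5p: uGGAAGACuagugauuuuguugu
miR-451a: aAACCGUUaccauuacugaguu
miR-33-5p: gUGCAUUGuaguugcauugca

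These 15 strands carry 15 different seeds. The family with the highest level, mir-124, and the families mir-138 and mir-30 are named only. Mir29a is at chr6:31062660-31062747 on the minus strand, outside annotated genes of that strand. Mir26a-1 at chr9:119031796-119031885 and Mir26a-2 at chr10:126995530-126995613 lie in introns of Ctdspl and Ctdsp2, which encode related phosphatases. Mir128-1 at chr1:128202361-128202430 lies in an intron of R3hdm1, and Mir128-2 at chr9:112118636-112118711 in an intron of Arpp21. Mir33 at chr15:82198122-82198190 lies in an intron of Srebf2, a regulator of cholesterol synthesis, and Mir7-1 at chr13:58392779-58392886 in an intron of Hnrnpk. Mir23a, Mir27a and Mir24-2 lie in line on the plus strand of chromosome 8, from base 84208518 to base 84208921. A leading mature strand in RefSeq was found for 79 member families. Their seeds were of 77 kinds, because mir-130 and mir-301 shared AGUGCAA and mir-92 and mir-25 shared AUUGCAC.

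Several libraries stood apart in ways that crossed the treatment groups, and values without them are given where the difference of a named family moved most. The libraries held 724063 to 1579550 counts on member families and 4351284 to 7255096 on mature miRNAs, and the total of the deepest library was 1.43 times that of the shallowest. In MC replicate 16, the shallowest, 15 member families were at their lowest and at least 2-fold below the next library, among families with at least 100 counts in some library and at least 10 in the next-lowest one. CS replicate 10, MC replicate 16 and MC replicate 17 shared families described from plants, as described further on, at 3.26% to 5.27% of precursor counts against at most 0.0592% in the other 9. SS replicate 12, CS replicate 8 and CS replicate 9 shared 6 member families at high level, and SS replicate 13, MS replicate 3 and MS replicate 23 shared another 4. The rule let in 6 families described from plants that are written in lower case (mir-156, mir-160, mir-166, mir-172, mir-393 and mir-399) and 5 described from insects or worms (mir-2, mir-14, mir-71, mir-276 and mir-263). The label "animal" therefore does not hold for the 6 families described from plants.

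The precursor counts of these brains were dominated by a few families. Among member counts, mir-124 took 43.6% ± 8.53 (SD, n = 12), with a range of 36.2% to 67.9% over libraries. The leading 3 families, mir-124, mir-29 and mir-9/mir-79, took 69.6% ± 5.22 together, and the leading 10 took 91.5% ± 1.57. Only 12 families averaged at least 1% of member counts, and 86 averaged under 0.1%. The median family had a mean level of 10.7 TPM, against 54166 TPM for mir-124 and 0.266 TPM for the lowest. TPM is here the tag count of a row scaled to the total of its library, with no correction for length. At least 1 count was present in every library for 85 families, and 27 were at 0 in at least 1 library, where the limit of 3 counts stands at 0.271 to 0.386 TPM. Counting error on a library's mir-124 share was at most 0.108 percentage points (95% exact binomial interval, counting error only).

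mir-124, the family of the neuronal microRNA miR-124, was the highest in every library. It stood at 53058, 46123 and 42283 TPM for SS, 41658, 46343 and 54727 for CS, 57301, 62289 and 67708 for MS and 63281, 62273 and 52953 for MC. These levels stayed within 1.63-fold of each other, the narrowest range among the 33 families with at least 100 counts in every library. Its share of member counts reached 67.9% only in MC replicate 16, where other large families were low.

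mir-29, whose mature strands are known to target DNA methyltransferases, came after it on average. Its levels were 13062, 12747 and 12553 TPM for SS, 17629, 15832 and 16905 for CS, 22631, 32094 and 23626 for MS and 5199, 23057 and 24597 for MC. All 3 SS libraries were below all CS libraries, which in turn were below all MS libraries, while MC replicate 16 was the lowest of the 12. mir-9/mir-79, which includes the neural miR-9, had 15186, 18259 and 15503 TPM for SS, 15812, 12933 and 15955 for CS, 14399.8, 17471 and 12479.8 for MS and 4025, 18521 and 20770.1 for MC. Outside MC replicate 16 it varied between 12479.8 and 20770.1 TPM, and MC replicates 17 and 20 were above every library of the other groups.

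The next families were widely expressed or neuronal. mir-181 had 6498, 7723 and 8398 TPM for SS, 7326, 5797 and 4476 for CS, 7639.9, 10088 and 7079 for MS and 3641, 5824 and 8308 for MC, with overlapping groups in each comparison. mir-26 ranged from 2398 to 8058 TPM, mir-128 from 2742 to 5211 TPM, mir-221 from 1832 to 4713 TPM and mir-23 from 1230 to 2334 TPM. The lowest mir-26 and mir-23 levels were again those of MC replicate 16.

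**Figure D1:**
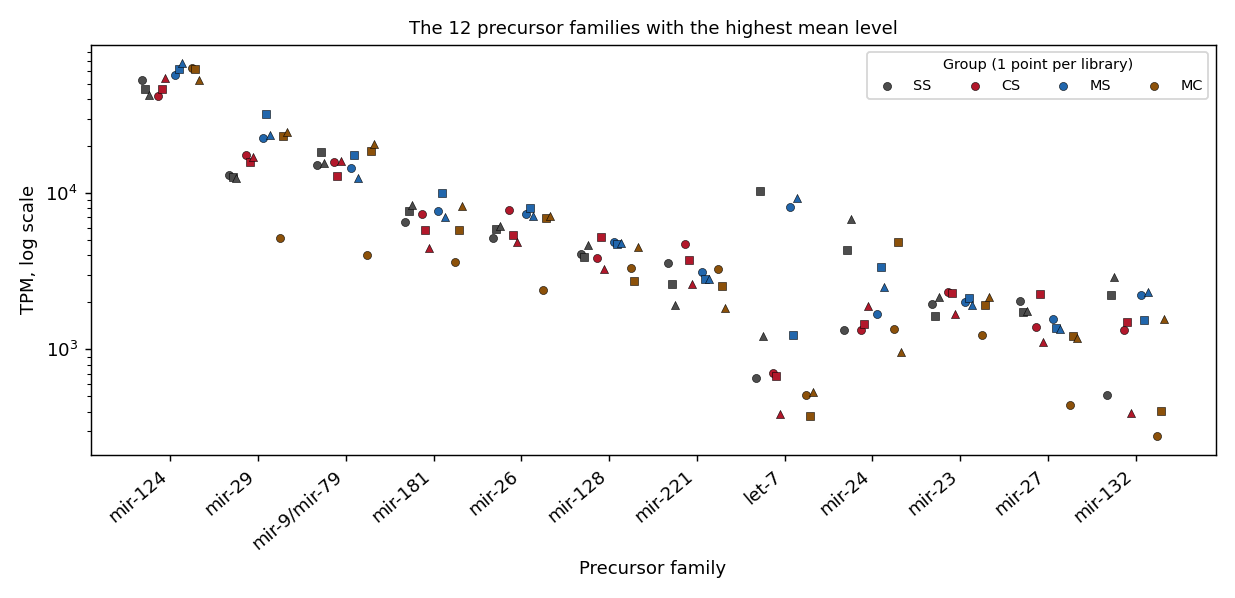
TPM on a log scale for the 12 precursor families with the highest mean level, with 1 point per library (circle, square and triangle for the libraries of a group in label order) and colour for the group. mir-124 stayed within 1.63-fold over the 12 libraries, let-7 ranged over 27.7-fold with 3 libraries at or above 8096 TPM, and the low brown circles of mir-29 and mir-9/mir-79 are MC replicate 16.

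Families of like abundance differed widely in how much they varied between libraries. The 5 steadiest of the 33 abundant families were mir-124 (highest over lowest level 1.63), mir-23 (1.90), mir-128 (1.90), mir-127 (1.92) and mir-221 (2.57). The 5 most variable were let-7 (27.7), lin-4 (13.7), mir-33 (11.4), mir-132 (10.5) and mir-451 (9.20). mir-33 and mir-451 owed their range to MC replicate 16, at 117 and 180 TPM, against at least 499.6 and 521 TPM elsewhere. let-7, lin-4 and mir-132 varied among several libraries.

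let-7, the family of a regulator of developmental timing, had 661, 10309 and 1227 TPM for SS, 709, 679 and 388 for CS, 8096, 1244 and 9271 for MS and 510.1, 373 and 536 for MC. Only SS replicate 13, MS replicate 3 and MS replicate 23 were at or above 8096 TPM, and no other library passed 1244 TPM. lin-4, the family that includes the mammalian miR-125, had 229, 783 and 1714 TPM for SS, 373, 289.9 and 302 for CS, 2032, 3129 and 2094 for MS and 282, 469 and 2204 for MC. The 3 MS libraries, SS replicate 14 and MC replicate 20 were at or above 1714 TPM and the other 7 at or below 783 TPM. mir-132, the family of a microRNA induced by neuronal activity, had 509, 2233 and 2925 TPM for SS, 1325, 1496 and 392 for CS, 2219.5, 1543 and 2315 for MS and 278, 403 and 1561 for MC. Its SS and MC levels each spread over more than the distance between the CS and MS means, 1071 and 2026 TPM.

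The families of the neighbouring hairpins Mir23a, Mir27a and Mir24-2 differed in range. The families mir-23 and mir-27 each matched 4 mature rows, so their rows are not counts of Mir23a and Mir27a alone. mir-24, which can also come from Mir24-1 on chromosome 13, had 1341, 4341 and 6806 TPM for SS, 1338, 1457 and 1902 for CS, 1694, 3379.9 and 2496 for MS and 1352, 4872 and 967 for MC. Levels of 3380 TPM and more were found in all groups but CS. mir-27 had 2034, 1743 and 1760.0 TPM for SS, 1395, 2264 and 1117 for CS, 1559, 1373 and 1347 for MS and 443, 1217 and 1188 for MC, lowest in MC replicate 16 and lower in every MS library than in every SS library. mir-23, also lowest in MC replicate 16, stayed within 1.90-fold, as given above.

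The share of all counts that fell on the 112 families answered whether precursor reads as a whole differed between treatments. It was 11.7% ± 0.586 for SS, 11.4% ± 0.192 for CS, 15.1% ± 0.727 for MS and 12.2% ± 2.52 for MC (SD, n = 3 each). The MS libraries lay at 14.3% to 15.8%, above the 11.3% to 12.4% of SS, the 11.2% to 11.5% of CS and the 9.32% to 13.8% of MC. Over the 4 groups F was 4.76 (exact permutation test of the F statistic over 369600 groupings, p = 0.0413, adjusted p = 0.0459 over the 2 shares tested). On the log2 scale the exact permutation p was 0.0664, and 12 of 17 alternatives lost the call. MS was 3.37 percentage points above SS, with all 3 MS libraries higher (exact permutation test, two-sided, p = 0.1, the smallest that 3 against 3 allow). CS was lower than SS by a mean difference of -0.345 points (exact permutation p = 0.4), and MC was 0.843 points above CS (exact permutation p = 0.5), with overlapping groups in both.

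Per count on mature miRNAs in the same library, member counts were 0.179 ± 0.00562 for SS, 0.180 ± 0.00993 for CS, 0.240 ± 0.0239 for MS and 0.208 ± 0.0356 for MC (n = 3 each). The difference over the groups gave F = 5.10 (exact permutation p = 0.0459, adjusted p = 0.0459 over the 2). Every MS library again exceeded every SS library, but the 3 MS libraries overlapped with MC, where replicates 17 and 20 were at 0.229 and 0.228. These calls are near the threshold and rest on single libraries. Without MS replicate 4 the exact permutation p was 0.130 for the share and 0.116 per mature count. Without MC replicate 16 it was 0.000909 and 0.00461. Values without SS replicate 12, CS replicate 8 and CS replicate 9, and without SS replicate 13, MS replicate 3 and MS replicate 23, are given with the alternatives. MC replicate 16 also had the largest part of its counts on the 4 class rows, 31.4% against 18.7% to 26.1% in the other libraries, and its part in these values was not tested beyond leaving it out.

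**Figure D2:**
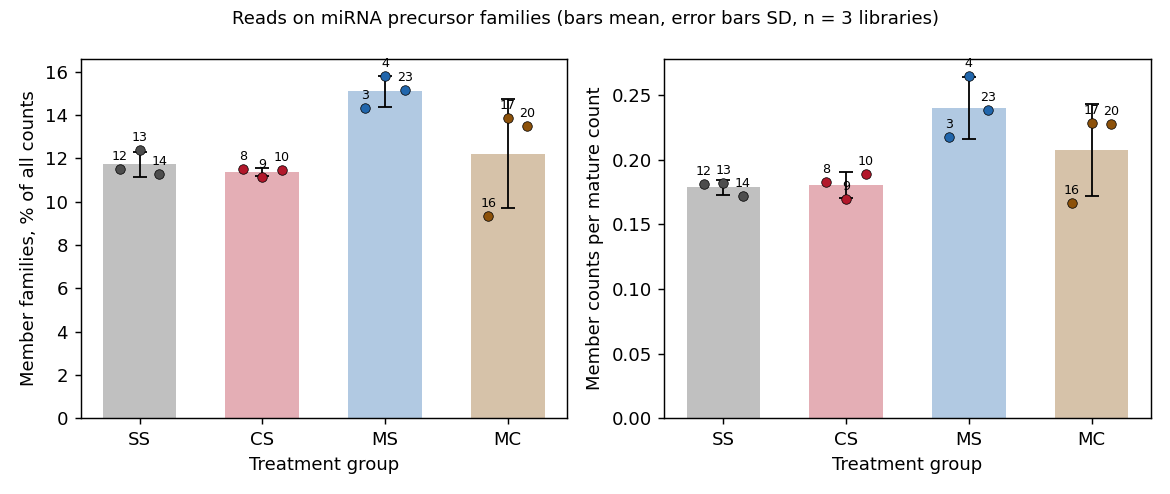
Counts on the 112 member families as a percentage of all counts (left) and per mature miRNA count (right), with 1 point per library labelled by its replicate number, bars for group means and error bars for SD (n = 3). MS libraries were at 14.3% to 15.8% on the left, above every other library, and MC replicate 16 was the lowest in both panels.

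No family passed the test in any comparison of treatments. In edgeR's quasi-likelihood test over 1389 small RNAs, 0 of 112 members had an adjusted p of at most 0.05 in CS against SS, MS against SS, MC against CS, their interaction or among the 4 groups, and so had 0% of all features in each. At an unadjusted p below 0.05 stood 14, 10, 13, 4 and 24 members in these 5 tests, beside 52, 83, 92, 48 and 109 features, which were 3.74%, 5.98%, 6.62%, 3.46% and 7.85% of all features. The 24 were 21.4% of members, 10 higher and 14 lower by their largest difference from SS. With single libraries left out this count moved both ways. Without MS replicate 3 it was 5 higher and 7 lower of 110 members, beside 43 and 30 of 1374 features. Without MC replicate 20 it was 12 higher and 21 lower of 109 members, beside 127 and 57 of 1358 features. DESeq2 called 1, 3, 1, 0 and 11 members in the same order, beside 3, 25, 2, 1 and 44 features, which were 0.216%, 1.80%, 0.144%, 0.0720% and 3.17% of the 1389. The edgeR fit with no filter on low counts called mir-122 among the 4 groups, the 1 feature called of 3130, or 0.0319%. The DESeq2 calls for mir-172, mir-399 and mir-1180 were of families at or near 0 counts outside 3 libraries that crossed the groups. The median SE of a member's log2 fold change was 0.691 in CS against SS, 0.678 in MS against SS and 0.689 in MC against CS. Without TMM factors, which rescale libraries to their bulk of features, the median log2 fold change of all features moved from 0.06 to 0.37 in CS against SS, from -0.05 to 0.12 in MS against SS and from 0.07 to -0.16 in the interaction, so directions below are relative to a median near 0 with those factors.

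Cocaine alone was compared with saline first. In CS against SS the 3 families with the smallest p were mir-668 of the imprinted Dlk1-Dio3 cluster, mir-135 and let-7, each lower in CS on average. mir-668 had a log2 fold change of -2.46 (SE 0.773, adjusted p = 0.996) in edgeR, from levels of 0.486, 1.99 and 0.632 TPM for SS, 0.472, 0.115 and 0.122 for CS, 0.729, 0.899 and 0.577 for MS and 0.386, 0.251 and 0.550 for MC. These are few reads: its counts were 4, 20 and 7 counts for SS, 4, 1 and 1 for CS, 8, 9 and 6 for MS and 3, 2 and 6 for MC. mir-135 had 9.48, 192 and 49.6 TPM for SS, 17.0, 10.7 and 10.8 for CS, 132, 30.6 and 131 for MS and 5.15, 18.1 and 26.8 for MC, and a log2 fold change of -3.06 (SE 1.00, adjusted p = 0.996) in edgeR. The SS mean of mir-135 was set by SS replicate 13, and SS replicate 12 was lower than every CS library. Without SS replicate 13 the log2 fold change was -1.49 for mir-668 and -1.44 for mir-135. let-7, with the values above, had a log2 fold change of -3.14 (SE 1.05, adjusted p = 0.996) in edgeR, and its SS mean too rested on SS replicate 13, without which the log2 fold change was -0.91.

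Levels did not overlap between CS and SS for 3 families that were higher in CS (mir-29, mir-276 and mir-184), where 8.93% of all features were that way, and for 3 that were lower (mir-19, mir-668 and mir-1306), where 2.02% of features were. The members' shares were 2.68% in each direction. mir-29 was at 16789 ± 904 TPM in CS and 12787 ± 257 TPM in SS, with a log2 fold change of 0.13 (SE 0.361, adjusted p = 0.996) in edgeR. mir-181, the fourth by p here, was at 7539 ± 963 TPM in SS and 5867 ± 1426 TPM in CS and had a log2 fold change of -0.65 (SE 0.219, adjusted p = 0.996) in edgeR. mir-124 did not keep a direction: its log2 fold change was -0.22 with TMM factors and 0.06 without them.

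Methionine alone, MS against SS, gave the largest number of members whose groups did not overlap in TPM. Of the members, 16 were higher in every MS library than in every SS library, 14.3% against 13.7% of all features, and 3 were lower, 2.68% against 3.96% of features. The 16 were mir-124, mir-29, mir-26, mir-128, lin-4, mir-30, mir-101, mir-433, mir-19, mir-17, mir-203, mir-183, mir-361, mir-299, mir-879 and mir-671, and the 3 lower ones were mir-7, mir-27 and mir-139. On the log2 scale of edgeR, 2 of the 16 had no settled direction: mir-128 was at -0.01 with TMM factors and 0.17 without, and mir-433 at 0.01 and 0.19, but -0.03 with the size factors of DESeq2. For the other 17 the sign was the same under these 3 scalings and with libraries scaled to their precursor counts. Among them mir-671 had few reads, with 2, 2 and 3 counts for SS and 3, 14 and 9 for MS. SS replicate 14 and MS replicate 3 held the same 3 counts, so only library totals set them apart.

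mir-29 was at 26117 ± 5199.8 TPM in MS against 12787 ± 257 TPM in SS and had a log2 fold change of 0.81 (SE 0.363, adjusted p = 0.672) in edgeR. The mature strand miR-29a-3p, counted on its own row, had 2157, 1632 and 2244 TPM for SS, 3477, 2864 and 3669 for CS, 4692, 7983 and 5338 for MS and 1532, 5877 and 5476 for MC, again without overlap between MS and SS, and a log2 fold change of 1.36 (SE 0.347, edgeR adjusted p = 0.669). mir-29 passed the test when MC replicate 16 was left out, with a log2 fold change of 0.82 (SE 0.120, edgeR adjusted p = 0.0188), and when CS replicate 10, MC replicate 16 and MC replicate 17 were left out together (edgeR adjusted p = 0.0488). It was the 1 member called in each of these fits, beside 5 of 1330 features (0.376%) in the first and 6 of 1288 features (0.466%) in the second. Neither setting removed an SS or MS library: the fold change stayed and the estimate of the spread fell. MC replicates 17 and 20, which had methionine too, were at 23057 and 24597 TPM, in the range of MS.

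mir-30, a widely expressed family, had 385, 325 and 478 TPM for SS, 512, 445 and 307 for CS, 656, 918 and 700.5 for MS and 262, 576 and 516 for MC, and a log2 fold change of 0.73 (SE 0.234, adjusted p = 0.669) in edgeR. All MS libraries lay above all SS and CS libraries. DESeq2 called it, with a log2 fold change of 0.69 (adjusted p = 0.0456). mir-7, the family of a microRNA bound by the circular RNA Cdr1as, had 203, 162 and 176 TPM for SS, 298, 220.5 and 105 for CS, 111, 107 and 119.5 for MS and 47.2, 115 and 105 for MC. It was lower in each MS library than in each SS library, with a log2 fold change of -0.87 (SE 0.320, adjusted p = 0.672) in edgeR, and its mature strand miR-7a-5p was also lower, with a log2 fold change of -0.89 (SE 0.262, edgeR adjusted p = 0.669).

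The family with the smallest p in MS against SS was mir-122, whose mature strand is the main microRNA of liver. It had 0.365, 4.28 and 1.44 TPM for SS, 0.708, 0.230 and 0.244 for CS, 148, 4.00 and 6.83 for MS and 0.772, 0.251 and 0.458 for MC, and a log2 fold change of 4.51 (SE 1.42, adjusted p = 0.669) in edgeR. MS replicate 3 was far above the rest, and without it the log2 fold change was 1.14. The mature strand miR-122-5p showed the same library, at 2494 TPM in MS replicate 3 and 9.04 to 173 TPM elsewhere. The family of miR-192 and miR-215, known from liver and gut, and mir-183, of sensory epithelia, were also highest in MS replicate 3, at 78.3 and 13.9 TPM against at most 8.69 and 4.52 TPM elsewhere. mir-344, the third by p, had 8.99, 0.598 and 0.451 TPM for SS, 6.49, 8.27 and 0.733 for CS, 0.182, 0.499 and 0 for MS and 0.515, 0.502 and 0.0916 for MC, and its SS mean rested on SS replicate 12, without which the log2 fold change was -1.44.

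**Figure D3:**
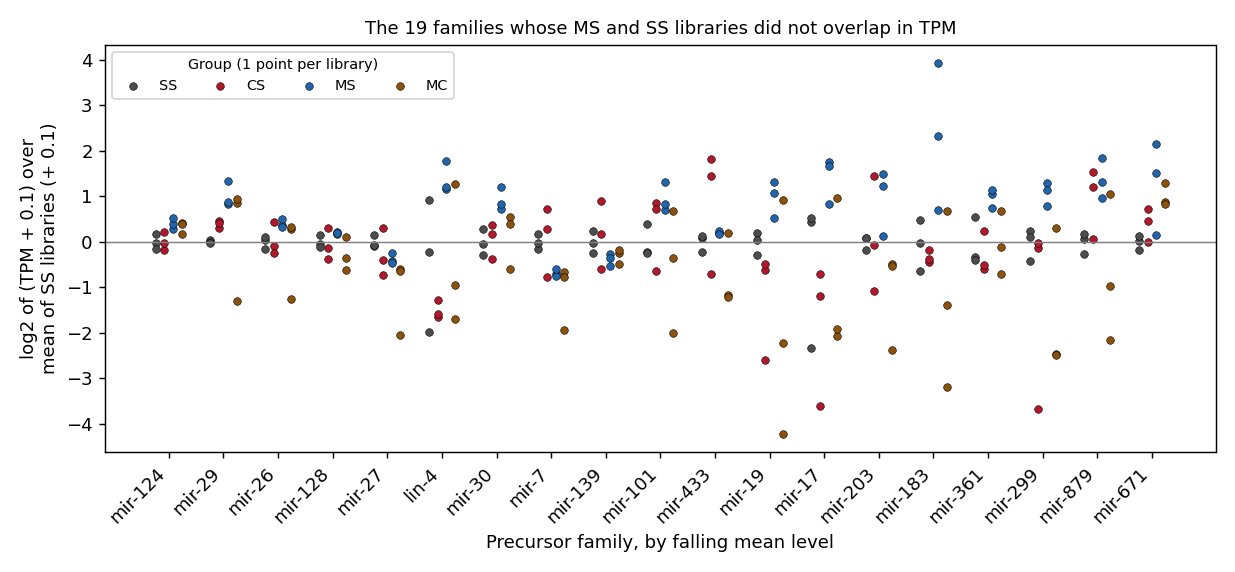
log2 of TPM (plus 0.1) over the mean of the SS libraries (plus 0.1) for the 19 families whose MS and SS libraries did not overlap in TPM, with 1 point per library and colour for the group. The MS points of mir-29 and mir-30 lie above 0 and those of mir-7 and mir-27 below it, and the lowest brown point of mir-29, mir-26, mir-27, mir-7 and mir-101 is MC replicate 16.

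Methionine in cocaine-treated mice, MC against CS, showed mostly lower families among those with an unadjusted p below 0.05 (12 lower, 1 higher), whereas of the features 37 were lower and 55 higher. MC replicate 16 was the lowest library for many members, as given above. Without it the members were 7 lower and 4 higher of 106 fitted, beside 32 lower and 43 higher of 1330 features. Without CS replicate 10, MC replicate 16 and MC replicate 17 only MC replicate 20 is left in MC, so no count is given. The 3 families with the smallest p were mir-7, mir-433 and mir-1937. mir-7 had a log2 fold change of -1.15 (SE 0.322, adjusted p = 0.637) in edgeR, with 3 MC libraries at 47.2, 115 and 105.5 TPM and CS replicates 8 and 9 at 298 and 220.5 TPM, but CS replicate 10 at 105.5 TPM overlapped. Without SS replicate 12, CS replicate 8 and CS replicate 9 the value for mir-7 was -0.39. mir-433 had 14.9, 12.0 and 15.3 TPM for SS, 49.6, 38.4 and 8.56 for CS, 16.0, 16.7 and 15.9 for MS and 6.18, 6.02 and 16.0 for MC, and a log2 fold change of -1.65 (SE 0.528, adjusted p = 0.637) in edgeR. It was high only in CS replicates 8 and 9, and without them and SS replicate 12 the sign turned (0.02). mir-1937 had a log2 fold change of -1.81 (SE 0.666, adjusted p = 0.637) in edgeR, again with CS replicates 8 and 9, at 3.78 and 3.56 TPM, above the rest, and without these and SS replicate 12 it was at -0.17.

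Between MC and CS, 2 families did not overlap and were higher in MC (mir-370 and mir-671, 1.79% of members against 3.24% of features), and 5 were lower (mir-33, mir-342, mir-328, mir-344 and mir-423, 4.46% against 2.95%). mir-33, hosted by Srebf2, was the only abundant one of these. It had 1126, 982 and 535 TPM for SS, 972, 1336 and 988 for CS, 1265, 667 and 996 for MS and 117, 846 and 499.6 for MC, and a log2 fold change of -1.24 (SE 0.549, adjusted p = 0.637) in edgeR. Without MC replicate 16 its log2 fold change was -0.79. The 2 families higher in MC had few reads. mir-671 had 2, 4 and 3 counts for CS and 4, 4 and 8 for MC. CS replicate 9 and MC replicates 16 and 17 held the same 4 counts, so only library totals set them apart. mir-370 was at 0.00110% of member counts in its highest library, MC replicate 16. mir-124 was at 59502 ± 5695 TPM in MC against 47576 ± 6621 TPM in CS and had a log2 fold change of 0.40 (SE 0.254, adjusted p = 0.713) in edgeR.

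The interaction asked whether methionine acted differently with and without cocaine. The 3 smallest p belonged to mir-263, mir-203 and mir-182, all with values below 0. mir-263 had 1.46, 1.20 and 0.812 TPM for SS, 1.42, 3.56 and 14.8 for CS, 9.66, 0.400 and 4.52 for MS and 0.386, 2.26 and 1.74 for MC, and an interaction of -4.24 on the log2 scale (SE 1.59, edgeR adjusted p = 0.929). mir-182 had 3.77, 12.4 and 10.7 TPM for SS, 8.14, 15.6 and 78.2 for CS, 25.3, 5.29 and 30.2 for MS and 1.54, 2.88 and 15.5 for MC. Both were highest in CS replicate 10, followed by MS replicates 3 and 23, and mir-96, of the same sensory cluster as mir-182, was high in these libraries too, at 86.2, 89.0 and 31.9 TPM. mir-203, a family of epithelia, was at 10.4 TPM in CS replicate 8 and at 8.84 and 10.7 TPM in MS replicates 3 and 23. Without CS replicate 10 the interaction was -2.69 for mir-263 and -1.85 for mir-182. Without SS replicate 13, MS replicate 3 and MS replicate 23 that of mir-263 was -0.57, and without CS replicate 10, MC replicate 16 and MC replicate 17 that of mir-182 was -0.71. For mir-203 it was -1.43 without CS replicate 8 and -0.80 without SS replicate 12, CS replicate 8 and CS replicate 9. Among the 4 groups the smallest p belonged to mir-122, mir-183 and mir-7 (edgeR adjusted p = 0.470, 0.586 and 0.586).

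Lists of families typical of cell types or shared origin were read from the same fit. In each of the 11 lists 0 members were called in any comparison. Summed levels are in TPM, and medians are of log2 fold changes in the order CS against SS, MS against SS and MC against CS, where all features had 0.06, -0.05 and 0.08. In bulk tissue, fewer cells of a type and less RNA per cell cannot be told apart.

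The neuron-enriched list had 13 members of 14 named, and all its defining families were present in every library. Its sum was 66404 to 74674 TPM for SS, 64931 to 75330.2 TPM for CS, 80490.0 to 88889 TPM for MS and 71817 to 85081 TPM for MC, most of it mir-124, and its medians were -0.22, -0.01 and -0.26. mir-138, a family enriched at synapses, had 1051, 525 and 449 TPM for SS, 1308, 981 and 697 for CS, 893, 1468 and 798 for MS and 704, 701 and 895 for MC. The sum was higher in every MS library than in every SS and CS library. mir-383, also listed as neuronal, was at 5.01, 19.4 and 6.90 TPM in CS replicate 10, MC replicate 16 and MC replicate 17 and at 139 to 311 TPM in the other 9 libraries.

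The oligodendrocyte families, mir-219 and mir-338, which promote myelination, summed to 43.0 to 179 TPM for SS, 58.1 to 169 TPM for CS, 80.0 to 93.4 TPM for MS and 41.2 to 88.0 TPM for MC and had medians of 0.15, -0.10 and -0.74. SS replicate 12, CS replicate 8 and CS replicate 9 were the highest, at 179, 140 and 169 TPM. The broadly expressed list had 19 members and medians of -0.19, 0.01 and -0.19, and its sum ran from 15603 TPM in MC replicate 16 to 63842 TPM in MS replicate 4. The imprinted Dlk1-Dio3 cluster, a large group of hairpins expressed in brain from the maternal chromosome, had 14 of 44 named families in the files and 7 members. These summed to 141 to 266 TPM, mostly mir-127, and had medians of -0.98, 0.01 and 0.16.

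The highest library was not the same in all lists of other cell types, but MC replicate 16 was the lowest in each. The blood list (5 members) summed to 599.6 to 976 TPM for SS, 808 to 1029.7 TPM for CS, 842 to 1727 TPM for MS and 220.1 to 1348 TPM for MC, most of it mir-451 of red cells, with medians of -0.01, -0.37 and 0.04. mir-223, a family of myeloid cells, was at 3.85 TPM in MC replicate 20 and at most 0.608 TPM elsewhere. The endothelium and vessel wall list (4 members, led by mir-126 of endothelium) summed to 227 to 501 TPM for SS, 279.9 to 570.4 TPM for CS, 336 to 445 TPM for MS and 155 to 385 TPM for MC, with medians of -0.13, 0.04 and -0.03. The muscle list (mir-1 and mir-133) summed to 16.1 to 49.2 TPM, with medians of 0.02, 0.41 and 0.01. The choroid plexus and hindbrain list (mir-10, mir-204 and mir-449) summed to 112 to 973 TPM, with medians of -0.41, -0.02 and -0.58. The liver and epithelia list (10 members) summed to 47.4 to 58.0 TPM for SS, 68.0 to 225 TPM for CS, 56.6 to 427 TPM for MS and 27.7 to 92.3 TPM for MC, with medians of 0.15, 1.25 and -0.30. MS replicate 3 and CS replicate 10 stood above the other libraries in that list, and their part in the MS and CS values of these families was not tested beyond leaving them out.

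The families described from other organisms formed the last lists. The 5 listed plant-type families in lower case (mir-393 was not on that list) summed to 1.08 to 20.1 TPM for SS, 1.49 to 1221 TPM for CS, 1.19 to 1.64 TPM for MS and 1.56 to 1404 TPM for MC, with medians of 6.41, -2.54 and 1.06. The 4 listed insect or worm families (mir-263 was not on that list) summed to 0 to 15.2 TPM, with medians of 4.29, -0.47 and 1.08. The high libraries were CS replicate 10, MC replicate 16 and MC replicate 17 in both.

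How counts were divided between a family row and mature rows of the same number differed from family to family. Mature rows were found for 94 families and none for 18. The median family had 4.38% of these counts on its family row, 60 families had under 10% and 19 of these under 1%. At the other end, mir-29, mir-221, mir-33 and mir-10 had more counts on the family row than on mature rows in every library. Matching by number leaves out relatives with other numbers, so a fraction can be too high for a family that spans several.

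mir-29 had 80.8, 83.8 and 79.4% for SS, 77.7, 78.2 and 76.9 for CS, 78.0, 75.3 and 76.5 for MS and 72.1, 73.9 and 76.4 for MC of its counts on the family row, a narrow band in which the SS libraries were the highest. mir-221 kept to 72.6% to 87.2%, mir-33 to 59.0% to 79.3% and mir-10 to 82.1% to 98.2%. For mir-124 the fraction was 24.3, 20.7 and 37.6% for SS, 58.1, 23.7 and 26.2 for CS, 25.4, 63.6 and 28.3 for MS and 57.7, 61.6 and 61.4 for MC. CS replicate 8, MS replicate 4 and all 3 MC libraries were at 57.7% to 63.6% and the other 7 at 20.7% to 37.6%. The family row itself varied 1.63-fold, whereas the mature miR-124 rows summed to 165289, 176348 and 70291 TPM for SS, 30032, 148945 and 153986 for CS, 168206, 35597 and 171637 for MS and 46363, 38759.8 and 33222 for MC. The libraries with a high fraction were thus those with few mature counts, all at or below 46363 TPM, against at least 70291 TPM in the rest.

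let-7 showed the reverse. Its fraction was 8.05%, 8.19% and 8.10% in SS replicate 13, MS replicate 3 and MS replicate 23 and 0.204% to 1.08% in the other 9, while the leading mature strand let-7c-5p had 27891, 35809.6 and 44733 TPM for SS, 34817, 33459.8 and 32864 for CS, 25373, 32000.2 and 33002 for MS and 116002, 35018 and 26864 for MC. The 3 libraries with high let-7 family rows were thus not high in the mature strand. The fraction of lin-4 also varied, with 7.15, 18.7 and 27.2% for SS, 6.47, 6.64 and 7.20 for CS, 30.1, 30.2 and 29.4 for MS and 5.15, 6.58 and 29.9 for MC on the family row. Mature miR-125b-5p lay within 1572 to 4782 TPM. The mature rows of lin-4 together were highest in MS replicate 4, at 7234 TPM, which also had the highest family row. MC replicate 17, with a low family row, followed at 6653 TPM. For mir-24, family and mature rows were high in the same libraries: miR-24-3p had 2788, 8469 and 15891 TPM for SS, 3466, 2852 and 4290.0 for CS, 4037, 9807 and 5379 for MS and 3585, 19155 and 3684 for MC, highest in SS replicate 14 and MC replicate 17, which were also highest on the family row.

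**Figure D4:**
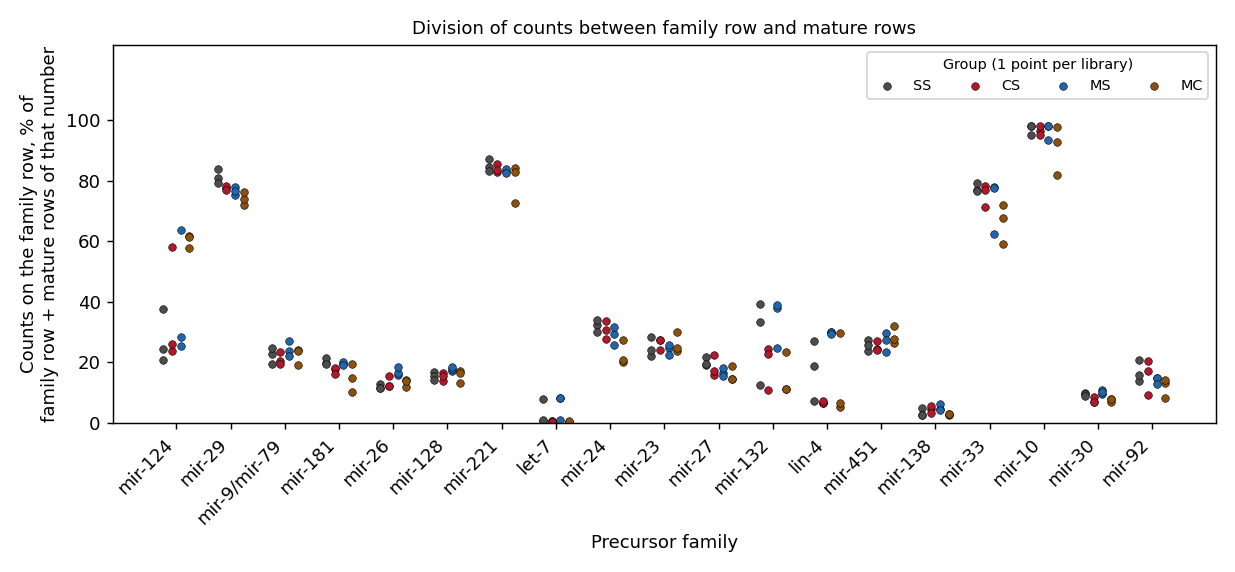
Counts on the family row as a percentage of counts on the family row plus the mature rows of the same number, for 19 of the 20 families with the highest mean level that had mature rows, with 1 point per library and colour for the group. mir-29, mir-221, mir-33 and mir-10 lay above 50% in every library, let-7 below 10%, and mir-124 split into libraries at 20.7% to 37.6% and at 57.7% to 63.6%.

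A total of 16 families were at least 3 times higher in 3 libraries than in the other 9, in 3 fixed sets of libraries that each crossed treatment groups. CS replicate 10, MC replicate 16 and MC replicate 17 held 6 of them: mir-166, mir-160, mir-399, mir-172, mir-276 and mir-393. mir-166, a plant family that controls leaf polarity, had 17.9, 1.89 and 1.08 TPM for SS, 1.77, 1.26 and 1044 for CS, 1.00, 1.50 and 1.54 for MS and 1222, 1115 and 1.47 for MC. mir-160 stood at 123, 127 and 131 TPM in the 3 libraries and at most 1.22 TPM elsewhere. mir-172 had 96, 28 and 98 counts in them and 0 in the other 9, which allows a level of up to 0.271 to 0.386 TPM there. All 13 upper-case MIR families that passed the minimum were in the same set, among 43 features in all. Some of them, such as MIR397 and MIR403, reached the minimum only in these 3 libraries.

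SS replicate 12, CS replicate 8 and CS replicate 9 shared mir-21, mir-454, mir-344, mir-423, mir-1307 and mir-1180, 6 of the 44 features of that set, of which 28 were piRNAs. mir-21, a family induced in reactive glia and inflammation, had 140.4, 5.28 and 2.80 TPM for SS, 247, 132 and 0.856 for CS, 11.1, 4.00 and 5.87 for MS and 1.03, 1.38 and 9.62 for MC. Its mature strand miR-21a-5p had 7358, 1449 and 1573 TPM for SS, 6844, 7941 and 1339 for CS, 3599, 1687 and 1309 for MS and 338, 1894 and 9181 for MC, high in the same 3 libraries and also in MC replicate 20. mir-1180 had 156, 0 and 0 counts for SS, 129, 146 and 0 for CS, 0, 0 and 1 for MS and 0, 0 and 0 for MC. mir-423 was at 4.13 to 4.98 TPM in the 3 libraries while its mature strand miR-423-3p varied only between 234 and 470 TPM over all 12.

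SS replicate 13, MS replicate 3 and MS replicate 23 shared let-7, mir-484, mir-1306 and mir-1827, and these 4 families were all the features of that set. mir-484 had 9.24, 102 and 11.8 TPM for SS, 13.1, 9.19 and 2.20 for CS, 59.6, 10.7 and 62.0 for MS and 3.86, 4.77 and 4.12 for MC, and its mature strand was not higher there, at 496, 313 and 295 TPM against 335 to 567 TPM in the other libraries. mir-1827 was at 5.08, 3.65 and 3.18 TPM in the 3 libraries and at most 0.275 TPM elsewhere. mir-204 and mir-135 were also highest in these libraries, below the 3-fold limit, with mir-204 at 86.6, 144 and 101.1 TPM against at most 36.0 TPM.

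**Figure D5:**
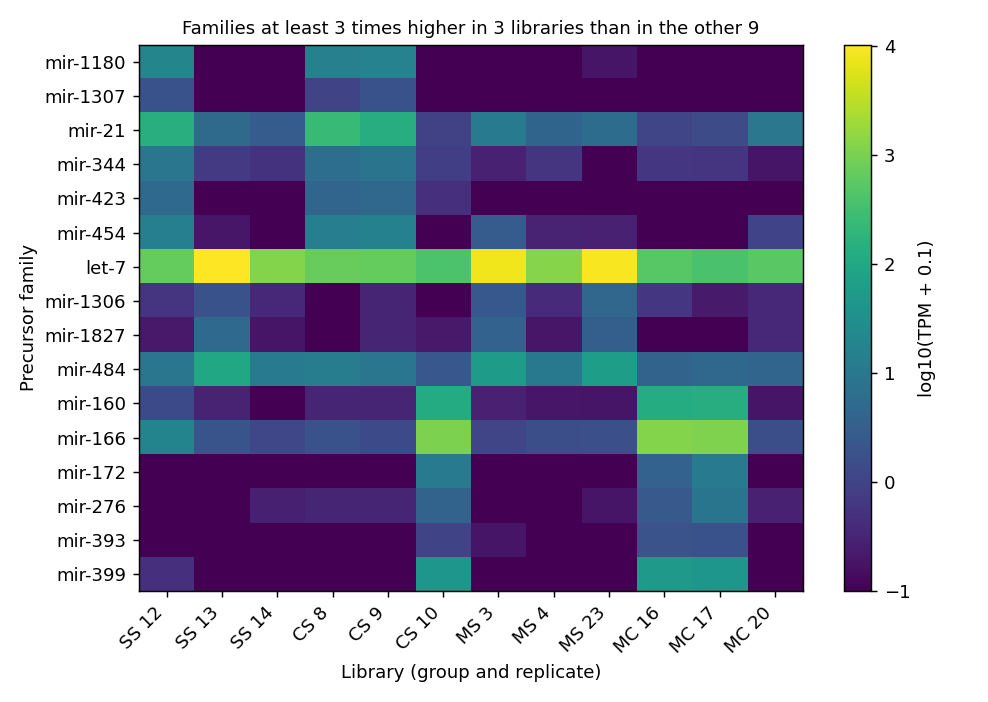
log10 of TPM plus 0.1 for the 16 families at least 3 times higher in 3 libraries than in the other 9, by library in label order. The upper 6 rows are high in SS 12, CS 8 and CS 9, the next 4 in SS 13, MS 3 and MS 23, and the lowest 6 in CS 10, MC 16 and MC 17.

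At the limit of the rule stood families with few reads. Exactly 3 libraries with at least 5 counts were found for 13 members, 9 of which are among the 16 families above. For those 9 the minimum already required reads in the same 3 libraries that made up their set. The other 4 were mir-14, mir-223, mir-671 and mir-689. mir-14, from insects, had 5, 6 and 9 counts in its 3 highest libraries, and mir-689 had 6, 7 and 8. Just outside were mir-499, a family of heart and muscle, with 5 and 7 counts in 2 libraries, mir-654 with 9 and 6, and the sea-squirt form of mir-92 with 9 and 8. No member passed the minimum through libraries of 1 group alone, and 65 had at least 5 counts in all 12.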

How the data were processed

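Small RNA of 18 to 30 nt from the PFC was sequenced as single-end reads of 50 bp in 12 libraries, 3 for each of SS, CS, MS and MC. The authors removed reads of low quality, with adapters or shorter than 16 nt, mapped the rest with AASRA, and aligned what was left after miRNA, rRNA and tRNA matches to piRBase with Bowtie, allowing 1 mismatch. The submitters' processing notes name mm10. The deposited counts are reads per small RNA without normalization. The deposited TPM values were checked to be the count scaled to the library total, to within 0.005. How the authors assigned reads to precursor families is not given in the sources used here.

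A quasi-likelihood test was fitted to the counts of all 12 libraries in edgeR (version 4.0.16, under R 4.3.3), with TMM factors and a coefficient for each group. The 1389 features that reached 5 counts in 3 or more libraries were tested. Calls needed a Benjamini-Hochberg adjusted p not above 0.05. The SE values given for edgeR were computed as the absolute log2 fold change divided by the square root of its F statistic. The 4 rows for exons, introns, repeats and intergenic sequence, 18.7% to 31.4% of counts, were left out of the tests and of the library sizes. The plan of the tests set the library size at the total count, and that setting was computed too. For the 2 shares the F statistic was tested by exact permutation of the libraries. Python 3.11.15 was used here, with its packages scipy 1.17.1, numpy 2.4.6 and pandas 2.3.3 and, for plots, matplotlib 3.10.9. The steps were tested on simulated data.

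The member families and the lists were chosen with earlier results of these data known. Named are the 10 families with the highest level, the 3 with the smallest p in each comparison, the 5 steadiest and 5 most variable of the 33 abundant families, the families at the limit of the rule, examples from the lists, and those whose groups did not overlap or that were high in shared sets of libraries, which were chosen after their values were seen. In each comparison families that did not overlap are those whose TPM in all 3 libraries of a group lay above or below all 3 of the other. Mature rows were matched to families by number, with lin-4 matched to miR-125. Mature sequences and hairpin positions were taken from RefSeq tables and host genes from GENCODE M21, both on GRCm38. No pair of libraries agreed within sampling noise (smallest chi-square per degree of freedom 152 over 66 pairs). Alternatives were DESeq2 1.42.0, other scalings and filters, a fit of 6 libraries, a limit on the log2 fold change of 1, and each library left out. Leaving out 3 libraries together and library sizes with all rows were added after seeing the data. The families with upper-case names were not members, but the 13 that passed the minimum were among the 1389 features tested.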

Additional observations from a re-analysis of the deposited data

Results flagged for a closer look

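The upper-case MIR families follow the naming of plants and were left out of the member families. They had reads in all libraries but were far above the SS level in 3. They made up 3.66% of precursor counts in CS replicate 10 (95% exact binomial interval 3.62% to 3.70%, counting error only), 5.27% in MC replicate 16 (5.22% to 5.32%) and 3.26% in MC replicate 17 (3.22% to 3.29%). The highest SS library, SS replicate 12, had 0.0592%, and none of the other libraries exceeded 0.00257%. These values were singled out because they are a signal in data outside the member families, above the level in the saline libraries. All 13 of these families that passed the minimum were at least 3 times higher in the same 3 libraries than in the other 9. MIR397, MIR408, MIR390, MIR403 and MIR162_2 had at least 5 counts in those 3 libraries only. For them the minimum already required reads there. The groups of 3 libraries were too small for the test of single outlying samples, and no member family passed the test of the interaction of methionine and cocaine.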

How the results depend on the processing

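No paired analysis was possible because the groups share no replicate numbers. Of 644 recomputed values (each result under each alternative), 597 kept their direction and side of the threshold. The mir-124 share of 43.6% stayed within 1 SD of that under the alternatives computed, at 41.3% to 44.2% with each library left out. With the limit on the log2 fold change, other scalings, library sizes with all rows, a fit of the precursor families alone, the higher count minimum and a fit of 6 libraries, 0 members were called in each comparison run. DESeq2 called 1 in CS against SS, 3 in MS against SS, 1 in MC against CS and 11 among the 4 groups, of 3, 25, 2 and 44 features, and the fit with no filter called 1 (mir-122) among the 4 groups, of 1 feature. With each library left out, 0 to 1 members were called in MS against SS (mir-29 without MC replicate 16, of 5 features) and 0 in the rest, and with CS replicate 10, MC replicate 16 and MC replicate 17 left out 1 was called, mir-29, of 6 features. The cause of the other calls was not tested.

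For the share of counts the exact permutation p was 0.0664 on the log2 scale, 0.000909 to 0.130 with each library left out (lowest without MC replicate 16, highest without MS replicate 4), 0.193 without SS replicate 12, CS replicate 8 and CS replicate 9, and 0.200 without SS replicate 13, MS replicate 3 and MS replicate 23. Per mature count p was 0.00461 to 0.116 with each library left out, and 0.185 and 0.0889 without these sets of 3 in the same order. Fewer libraries leave fewer groupings.

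Directions turned as follows, in log2 fold changes. mir-124 in CS against SS was 0.062 without TMM factors, 0.034 as a share of precursor counts, -0.43 to 0.015 with each library left out (highest without CS replicate 8) and 0.22 without SS replicate 12, CS replicate 8 and CS replicate 9. In the interaction mir-124 was -0.010 without TMM factors, -0.039 (without MC replicate 16) to 0.42 with each library left out and -0.23 without SS replicate 12, CS replicate 8 and CS replicate 9. mir-29 in MC against CS was -0.14 as a share of precursor counts, -0.20 to 0.42 with each library left out (below 0 without CS replicate 8, MC replicate 17 or MC replicate 20) and -0.13 without SS replicate 12, CS replicate 8 and CS replicate 9, and mir-433 there was 0.019 without those 3. None of these values passed the test in the main setting. The depth limits families under about 5 counts, for which groups at 0 allow up to 0.271 to 0.386 TPM.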
